A study of Mus musculus with 8 samples.

Results

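The integrins and laminins of mouse osteoblasts were described from 40 genes: 25 integrin chains, 11 laminin chains, the 2 nidogens, perlecan (Hspg2) and agrin (Agrn). They were chosen by symbol: integrin genes named Itga or Itgb followed by a number or a single chain letter, laminin genes named Lama, Lamb or Lamc followed by a number, and those 4 basement membrane genes, out of 43346 genes in the count table. Itga2b, the platelet integrin alpha chain, falls outside this pattern and was used as a platelet marker. The cells were MC3T3, an osteoblast precursor line from mouse that forms bone-like matrix in culture, and the study asked how LLC1 lung carcinoma medium changes RNA levels in these cells. The LLC_CM group (n = 4) was given 25% conditioned medium from LLC1 cells, a Lewis lung carcinoma line, which had been collected over 48 hours in serum-free medium. The NCM group (n = 4) carries an abbreviation that the labels do not spell out, and it was taken by elimination as the vehicle group. Cells of both groups were kept for 7 days with 10 mM beta-glycerophosphate and 100 micrograms per mL of ascorbic acid, which support mineralization. All libraries come from a single cell line, and what the vehicle was made of is not stated. Nothing in the labels says that replicates were separate cultures. A p-value here therefore sets the group difference only against the spread among these samples, and that spread may be technical.

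Integrins are cell surface receptors made of an alpha and a beta chain, and the pairing sets what they bind: collagens, laminins, or matrix proteins such as fibronectin and vitronectin that carry the arginine-glycine-aspartate (RGD) motif. Laminins are trimers of an alpha, a beta and a gamma chain, and they form the sheet of basement membranes, to which nidogens and the proteoglycans perlecan and agrin bind. Osteoblasts sit on collagen I rather than on a continuous basement membrane, and collagen- and fibronectin-binding integrins are known to anchor them to bone matrix.

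The promoters of the genes that the laminin beta exchange and the integrin decreases turn on are given first, because Lamb1 and Lamb2 moved in opposite directions and Itga10 and Itgb1 moved down together. Lamb1 encodes the laminin beta1 chain and Lamb2 the beta2 chain, which can take the same place in the trimer. Itga10 encodes a collagen-binding alpha chain, and Itgb1 the beta1 chain that it pairs with. The sequences are RefSeq windows of GRCm38.p6, the plus strand, from 250 bases before the RefSeq start site and ending before the 5' end of the gene in the count table. Capitals mark GC boxes (GGGCGG on either strand).
Lamb1 promoter, chr12:31265043-31265233: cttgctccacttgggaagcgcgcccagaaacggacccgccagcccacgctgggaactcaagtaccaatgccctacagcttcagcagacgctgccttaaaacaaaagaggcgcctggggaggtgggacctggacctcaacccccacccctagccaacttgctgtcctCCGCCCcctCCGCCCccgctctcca
Lamb2 promoter, chr9:108479612-108479735: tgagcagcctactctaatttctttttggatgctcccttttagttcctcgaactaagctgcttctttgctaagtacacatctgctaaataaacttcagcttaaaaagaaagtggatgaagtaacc
Itga10 promoter, chr3:96645334-96645583: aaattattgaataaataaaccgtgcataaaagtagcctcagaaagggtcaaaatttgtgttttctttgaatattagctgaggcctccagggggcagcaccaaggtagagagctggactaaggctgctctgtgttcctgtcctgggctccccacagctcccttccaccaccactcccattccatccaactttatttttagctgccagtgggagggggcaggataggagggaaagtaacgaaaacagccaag
Itgb1 promoter, chr8:128685404-128685653: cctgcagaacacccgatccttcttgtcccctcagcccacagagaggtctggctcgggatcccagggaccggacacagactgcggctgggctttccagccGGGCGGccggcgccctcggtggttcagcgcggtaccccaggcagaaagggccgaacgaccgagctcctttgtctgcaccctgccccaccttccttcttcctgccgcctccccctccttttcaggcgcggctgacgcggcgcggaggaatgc
Over the 250 bases before the start site, the Lamb1 window held 62% G or C, 14 CpG dinucleotides and 2 GC boxes, 84 and 75 bases before the start site. The Lamb2 window held 43.6% G or C, 3 CpG dinucleotides and no GC box. Of these 250 bases, 191 are printed for Lamb1 and 124 for Lamb2, and the rest lie within the gene model. The Itga10 window held 48% G or C, 2 CpG dinucleotides and no GC box, whereas the Itgb1 window held 68% G or C, 21 CpG dinucleotides and 1 GC box. The medians over all 32851 RefSeq windows were 52.4% G or C and 6 CpG dinucleotides, and 32.7% of all windows held a GC box. The Lamb1 and Itgb1 windows thus held more CpG dinucleotides than the median window, and the Lamb2 and Itga10 windows held fewer. A link of this to level or direction was not tested. None of the 4 windows matched a TATA box (TATAAA), a RUNX motif (TGTGGT), an AP-1 motif (TGANTCA) or the NF-kB motif, which were found on either strand in 12.4%, 14%, 6.75% and 7.25% of all windows. A match or its absence describes the letters of these windows only.

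The count table gave 27264212 to 35573953 reads per library, and 14991 of its genes passed the filter on low counts and were tested. All 8 osteoblast markers were detected in both groups. Their summed level was 50743 to 59839 CPM (read counts scaled to a common library total) in LLC_CM and 68006 to 89875 CPM in NCM. Most of this sum came from Col1a2, Col1a1, Ibsp and Spp1. All 8 markers passed the test, 7 of them lower and 1, Spp1, higher in LLC_CM. The fall was largest for Bglap (1.55 CPM in LLC_CM, 128 in NCM) and Alpl (13.7 CPM in LLC_CM, 62.6 in NCM). Sp7 (230 CPM in LLC_CM, 529 in NCM) and Runx2 (237 CPM in LLC_CM, 470 in NCM) came next. The first principal component held 76.4% of the variance and separated the groups. In bulk RNA, fewer cells of a type and less RNA per cell cannot be told apart.

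Basement membrane chains were mostly higher in LLC_CM cells, and the main collagen receptor chains were lower. Of the 40 genes, 28 could be tested, and 12 had too few counts. At an adjusted p under 0.05, 19 of the 28 differed between the groups, which is 67.9%, where 36.9% of all genes tested did. Among them 15 were higher in LLC_CM and 4 lower, beside 18.8% and 18.1% of all genes. In 9 of the 28 the change was also at least 2-fold, against 8.61% of all genes. In 20 of the 28 the libraries of the groups did not overlap, against 36.3% of all genes, with 15 of them higher in LLC_CM (18.1% of all genes) and 5 lower (18.2%). The median log2 fold change, LLC_CM minus NCM, was 0.48 over the 28 genes and 0.01 over all genes tested. These counts leave out the 12 genes that were too low to test and are descriptive. Itgb2, Lama5, Lama2 and Itga2 passed the filter on low counts through their LLC_CM libraries, with 23, 17, 36 and 49 summed counts in NCM. They could therefore be counted only as higher, and all are among the 9 with a change of at least 2-fold.

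**Figure D1:**
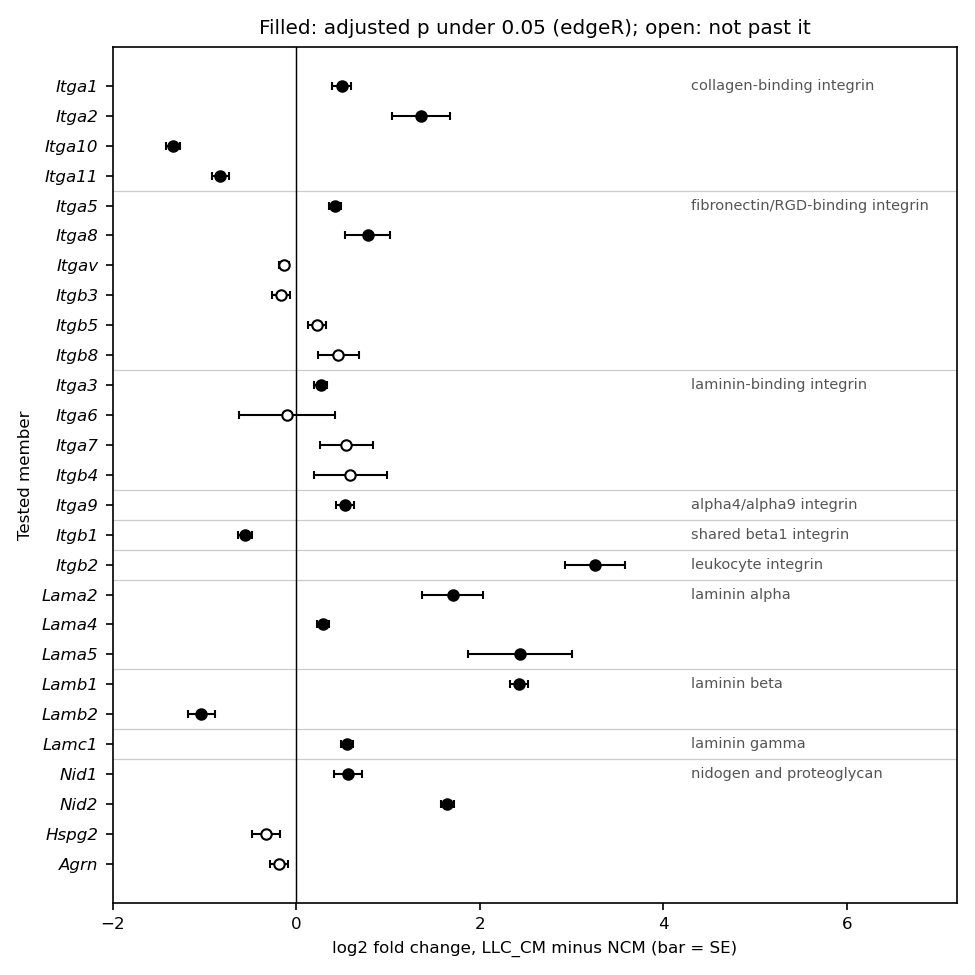
The plot shows the log2 fold change, LLC_CM minus NCM, of 27 tested genes on the horizontal axis, with the SE as bars, from top to bottom by class. Filled points passed an adjusted p of 0.05 in edgeR, and 14 of them lie to the right of zero and 4 to the left.

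The laminin beta chains changed places. Lamb1 had 312, 261, 275 and 303 CPM in the LLC_CM libraries, against 59.6, 59.8, 43.3 and 51.1 CPM in the NCM libraries. Every LLC_CM library was above every NCM library, and Lamb1 was 5.38-fold higher in LLC_CM (log2 fold change 2.43 ± 0.10 SE, adjusted p = 1.6e-10, edgeR quasi-likelihood test). The gene (ENSMUSG00000002900) lies at chromosome 12, 31265234 to 31329644, in mm10. Lamb2, whose chain is best known from the neuromuscular junction and the kidney filter, had 93.7, 71.6, 114 and 110.4 CPM in the LLC_CM libraries, against 178, 213, 239 and 170.5 CPM in the NCM libraries. All LLC_CM libraries were below all NCM libraries, and Lamb2 (ENSMUSG00000052911, chromosome 9, 108479736 to 108490530) was 2.05-fold lower in LLC_CM (log2 fold change -1.04 ± 0.15 SE, adjusted p = 0.0002). Lamb3, the beta chain of the epithelial laminin, had 3 counts over all LLC_CM libraries and 14 over all NCM libraries, and was not tested.

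To compare chains with each other, CPM was divided by the length of the gene model in kilobases. On this scale Lamb1 made up 67.1%, 69.1%, 59.7% and 62.7% of the summed laminin beta level in the LLC_CM libraries, against 17.0%, 14.7%, 10.0% and 15.5% in the NCM libraries. Lamb1 was thus the larger share in each LLC_CM library, and Lamb2 was the larger in each NCM library. The ratio of Lamb1 to Lamb2 was 1.86 ± 0.343 in LLC_CM and 0.168 ± 0.0403 in NCM (SD, n = 4 each). The sum of the beta chains was closer between the groups, at 45.0 ± 4.69 CPM per kilobase in LLC_CM and 38.3 ± 4.87 in NCM, and its libraries overlapped. With the longest annotated transcript as the length, that sum was 67.1 ± 6.33 in LLC_CM and 44.8 ± 5.09 in NCM, with no overlap.

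**Figure D2:**
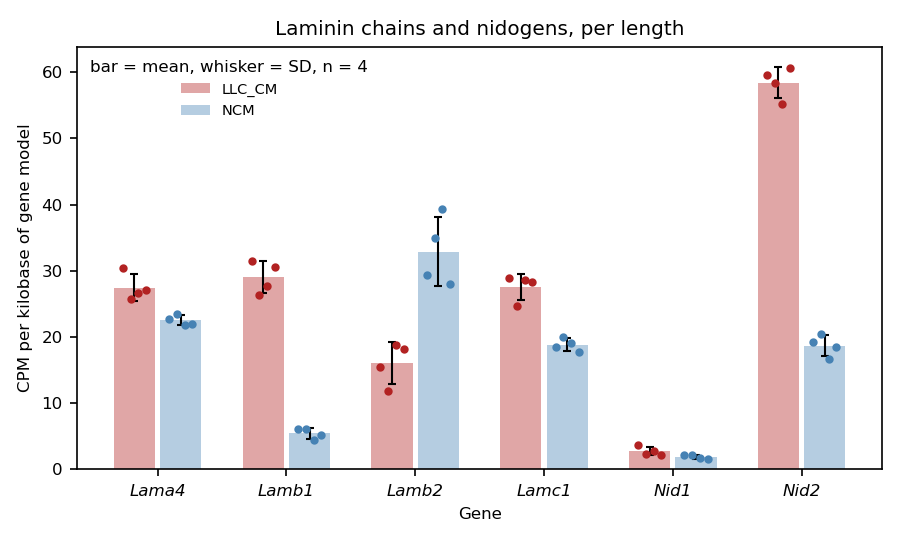
Bars give the mean level in CPM per kilobase of gene model, whiskers the SD, and points the 4 libraries of each group. Lamb1 and Lamb2 trade places between the groups, and Nid2 stands at 58.5 CPM per kilobase in LLC_CM, against 18.7 in NCM.

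Among the gamma chains, Lamc1 carries most laminin trimers. It had 239, 204, 236 and 234 CPM in the LLC_CM libraries, against 152, 165, 157 and 146 CPM in the NCM libraries. The groups did not overlap, and the change was 1.47-fold (log2 fold change 0.55 ± 0.06 SE, adjusted p = 6.3e-06). The gene lies at chromosome 1, 153218922 to 153332786. Lamc3 had no count in LLC_CM and 4 counts in NCM.

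Among the alpha chains, Lama4, a chain of vessels and mesenchymal tissue, supplied nearly all of the level. It had 366, 311, 321 and 327 CPM in the LLC_CM libraries, against 275, 283, 263 and 265 CPM in the NCM libraries. The groups were apart, but the change was small, 1.22-fold (log2 fold change 0.29 ± 0.06 SE, adjusted p = 0.0023). Lama4 was 99.5% of the summed alpha level in LLC_CM and 99.7% in NCM. The other alpha chains that could be tested, Lama2 and Lama5, had few counts. Both passed the filter on low counts through their LLC_CM libraries, so they could be counted only as higher. Lama2, the chain of muscle basement membrane, had 0.966, 1.52, 0.924 and 0.658 CPM in the LLC_CM libraries, against 0.239, 0.283, 0.318 and 0.379 CPM in the NCM libraries (log2 fold change 1.70 ± 0.33 SE, adjusted p = 0.00085). Lama5, a chain of many adult basement membranes, had 0.612, 0.333, 0.980 and 1.23 CPM in the LLC_CM libraries, against 0.307, 0, 0.141 and 0.126 CPM in the NCM libraries (log2 fold change 2.44 ± 0.57 SE, adjusted p = 0.0033). For both genes the lowest LLC_CM library was above the highest NCM library. The Lama5 value rests on 104 counts in LLC_CM and 17 in NCM. Its log2 fold change ranged from 2.04 to 3.08 over the alternative settings, and was 3.08 without NCM replicate 1. Lama1 had 13 counts in LLC_CM and 20 in NCM, and Lama3 had 8 in LLC_CM and 11 in NCM, and neither was tested.

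Nid2, a linker between laminin and collagen IV, changed most clearly of the 4 nidogen and proteoglycan genes. It had 291, 285, 269.8 and 296 CPM in the LLC_CM libraries, against 93.8, 99.6, 81.3 and 90.1 CPM in the NCM libraries. The lowest LLC_CM library lay far above the highest NCM library, and Nid2 was 3.13-fold higher in LLC_CM (log2 fold change 1.65 ± 0.07 SE, adjusted p = 6e-11). The gene (ENSMUSG00000021806) lies at chromosome 14, 19751257 to 19811787, and 8.45% of its annotated exon bases overlap Rtraf on the opposite strand, from which the library kit cannot separate it. Nid1, the other nidogen, had 21.7, 14.1, 16.9 and 13.3 CPM in the LLC_CM libraries, against 12.7, 12.6, 9.96 and 9.43 CPM in the NCM libraries. These groups were apart by a narrow margin, with a 1.48-fold change (log2 fold change 0.56 ± 0.15 SE, adjusted p = 0.0098). Per length, Nid2 was 95.5% of the nidogen level in LLC_CM and 91.0% in NCM.

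The proteoglycans did not pass the test. Hspg2 had 288, 229.6, 338 and 377 CPM in the LLC_CM libraries, against 338, 392, 478 and 341 CPM in the NCM libraries (log2 fold change -0.33 ± 0.15 SE, adjusted p = 0.11). Agrn, known for clustering acetylcholine receptors at the nerve-muscle synapse, had 68.5, 63.4, 86.6 and 79.3 CPM in the LLC_CM libraries, against 76.0, 85.3, 98.6 and 81.0 CPM in the NCM libraries (log2 fold change -0.19 ± 0.10 SE, adjusted p = 0.15). The groups overlapped for both genes. Hspg2 passed without LLC_CM replicate 4 (adjusted p = 0.037), and Agrn passed without LLC_CM replicate 3 (adjusted p = 0.033), each lower in LLC_CM.

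The 4 collagen-binding alpha chains all passed the test, in both directions. Itga10, which is best known from cartilage, had 242, 233, 289.5 and 244 CPM in the LLC_CM libraries, against 614, 642, 699 and 610.0 CPM in the NCM libraries. The groups were far apart, and Itga10 (ENSMUSG00000090210, chromosome 3, 96645584 to 96664519) was 2.54-fold lower in LLC_CM (log2 fold change -1.35 ± 0.08 SE, adjusted p = 3.4e-09). In GENCODE M21, 33.5% of its exon bases are shared with Gm42957 on the same strand, and how reads there were counted is not given in the sources used here. Itga11, a collagen I receptor chain of mesenchymal cells, had 79.0, 71.8, 90.7 and 96.7 CPM in the LLC_CM libraries, against 145, 149, 172 and 136 CPM in the NCM libraries. It was 1.78-fold lower in LLC_CM, without overlap (log2 fold change -0.83 ± 0.09 SE, adjusted p = 6.4e-06). Itga1, whose product prefers collagen IV, had 83.5, 71.5, 65.9 and 68.6 CPM in the LLC_CM libraries, against 55.7, 59.8, 42.7 and 47.5 CPM in the NCM libraries. Its LLC_CM libraries were all higher, by 1.41-fold (log2 fold change 0.49 ± 0.10 SE, adjusted p = 0.0015). Itga2, whose product prefers fibrillar collagen, had 1.38, 0.999, 0.952 and 0.956 CPM in the LLC_CM libraries, against 0.648, 0.354, 0.212 and 0.442 CPM in the NCM libraries. It was higher without overlap, on summed counts of 136 in LLC_CM and 49 in NCM (log2 fold change 1.36 ± 0.32 SE, adjusted p = 0.0036).

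The sum of the collagen-binding alpha chains was therefore lower, at 77.5 ± 5.61 CPM per kilobase in LLC_CM and 162 ± 10.3 in NCM (SD, n = 4 each), and its make-up differed. Itga10 was 62.7 ± 2.38% of it in LLC_CM and 76.5 ± 0.711% in NCM. Itga1 was 15.7 ± 2.31% in LLC_CM and 5.34 ± 0.942% in NCM. The libraries of the groups did not overlap in either share. The length of Itga1 bears on its share: with the longest annotated transcript as the length, it was 9.02% in LLC_CM and 2.91% in NCM. The 2 genes that were higher, Itga1 (114958079 to 115101964) and Itga2 (114835916 to 114932041), lie 26037 bases apart on chromosome 13, on the same strand and with 1 annotated gene between them. Itga2 passed the filter on low counts through its LLC_CM libraries and could be counted only as higher, so the shared direction says little.

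**Figure D3:**
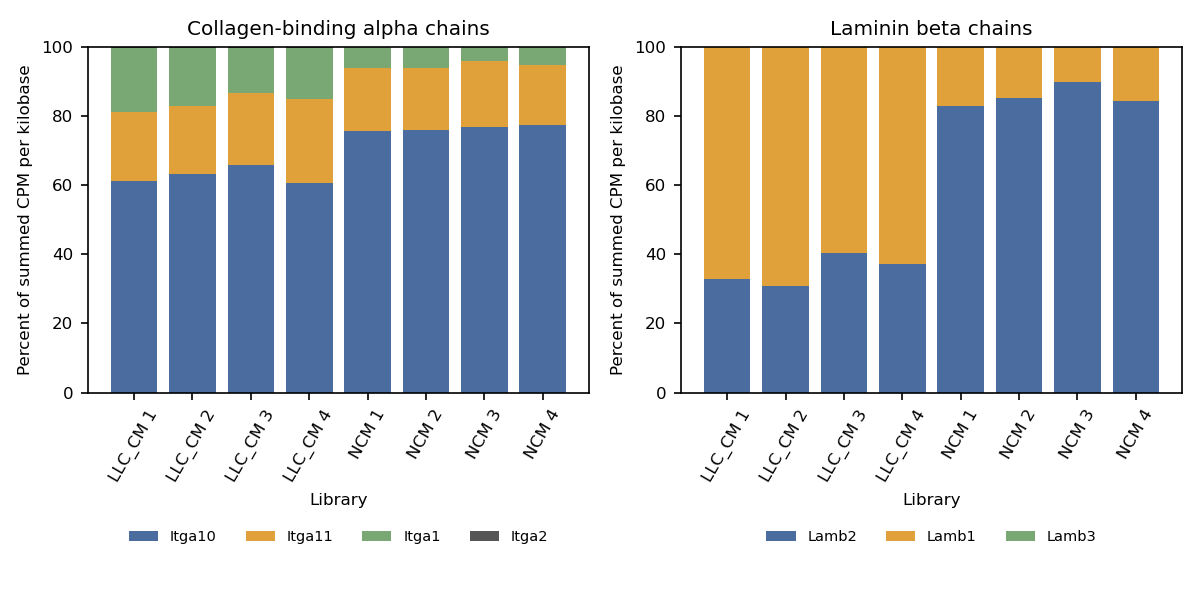
Stacked bars give, for each library, the percent of the summed CPM per kilobase that each collagen-binding alpha chain (left) and each laminin beta chain (right) contributed. Lamb1 takes 59.7% to 69.1% of the beta chains in LLC_CM and 10.0% to 17.0% in NCM, while Itga2 and Lamb3 are too low to be seen.

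Itgb1 encodes the beta1 chain shared by the collagen receptors and by most fibronectin and laminin receptors. It had 1039, 1103, 943 and 947 CPM in the LLC_CM libraries, against 1552, 1521, 1386 and 1496 CPM in the NCM libraries. Every LLC_CM library was lower, and the gene (ENSMUSG00000025809, chromosome 8, 128685654 to 128733200) was 1.48-fold lower in LLC_CM (log2 fold change -0.56 ± 0.08 SE, adjusted p = 2.6e-05). It had the highest level per length of all 40 genes in both groups. The sum of the alpha chains that pair with beta1 alone was 117 ± 6.46 CPM per kilobase in LLC_CM and 191 ± 9.79 in NCM. The ratio of Itgb1 to that sum was 2.12 ± 0.282 in LLC_CM and 1.91 ± 0.175 in NCM, and the libraries of the groups overlapped in it. Itgb1 was 74.5 ± 3.83% of the summed integrin beta level in LLC_CM and 83.5 ± 2.11% in NCM.

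Of the fibronectin and RGD receptor chains, 2 of 6 tested passed, both higher in LLC_CM, a share (33.3%) near the 36.9% of all genes. Itga5, the alpha chain of the main fibronectin receptor, had 94.4, 87.6, 93.7 and 103 CPM in the LLC_CM libraries, against 68.9, 67.2, 72.4 and 74.3 CPM in the NCM libraries. The groups were apart, with a 1.34-fold change (log2 fold change 0.42 ± 0.06 SE, adjusted p = 6.8e-05). Itga5 was 16.3% of the summed integrin alpha level in LLC_CM and 7.77% in NCM, while Itga10 was 36.7% in LLC_CM and 59.4% in NCM. Itga8, whose product binds nephronectin, had 45.3, 38.8, 27.7 and 30.6 CPM in the LLC_CM libraries, against 22.3, 25.8, 11.2 and 23.6 CPM in the NCM libraries. The groups came close without overlap, at a log2 fold change of 0.78 ± 0.25 SE (adjusted p = 0.033). This call ended without LLC_CM replicate 1 (adjusted p = 0.060), LLC_CM replicate 2 (0.13) or NCM replicate 1 (0.064). It also ended with library size alone as the scaling (0.053) or no filter on low counts (0.12). The adjusted p was smallest with the replicate number as a block (0.00027), then with limma-voom (0.0085) and without NCM replicate 3 (0.011).

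The chains of the alphav receptors did not pass. Itgav, the alpha chain that pairs with several beta chains to bind vitronectin and latent TGF-beta, had 171, 167, 156 and 153 CPM in the LLC_CM libraries, against 182, 173, 171 and 184 CPM in the NCM libraries. The groups touched without overlapping, at a log2 fold change of -0.14 ± 0.06 SE (adjusted p = 0.076), and DESeq2 called it lower (adjusted p = 0.042). Itgb5, a partner of Itgav, had 267, 225, 299 and 301 CPM in the LLC_CM libraries, against 223, 240.4, 266 and 204 CPM in the NCM libraries (log2 fold change 0.23 ± 0.10 SE, adjusted p = 0.087). Its libraries overlapped through LLC_CM replicate 2, and it passed without that library (adjusted p = 0.0074) or without NCM replicate 3 (adjusted p = 0.030). Itgb3, the beta chain of the vitronectin receptor of osteoclasts, had 11.6, 12.8, 14.1 and 12.4 CPM in the LLC_CM libraries, against 13.6, 13.5, 16.5 and 13.7 CPM in the NCM libraries (log2 fold change -0.17 ± 0.10 SE, adjusted p = 0.21). Itgb8, which with Itgav activates latent TGF-beta, had 1.48, 1.92, 1.93 and 2.00 CPM in the LLC_CM libraries, against 1.43, 1.74, 0.883 and 1.29 CPM in the NCM libraries (log2 fold change 0.46 ± 0.23 SE, adjusted p = 0.13). The groups overlapped for both. Itgb6, the epithelial partner of Itgav, had 6 counts in each group and was not tested.

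Of the 4 laminin receptor chains, 1 passed (25%, where 36.9% of all genes did). Itga3, which binds laminins of the alpha3 and alpha5 chains, had 60.9, 54.3, 65.8 and 66.8 CPM in the LLC_CM libraries, against 52.0, 53.9, 51.6 and 48.6 CPM in the NCM libraries. The margin between the groups was 54.3 CPM in the lowest LLC_CM library against 53.9 in the highest NCM library, and the change was 1.20-fold (log2 fold change 0.27 ± 0.07 SE, adjusted p = 0.0078). Itga7, a laminin receptor of muscle, had 1.74, 0.814, 1.18 and 1.29 CPM in the LLC_CM libraries, against 0.546, 0.992, 1.13 and 0.789 CPM in the NCM libraries (log2 fold change 0.54 ± 0.29 SE, adjusted p = 0.16). Itga6 had 0.225 to 1.37 CPM in LLC_CM and 0.375 to 1.32 CPM in NCM (adjusted p = 0.90). Itgb4, its partner in epithelial hemidesmosomes, had 0.308 to 1.23 CPM in LLC_CM and 0.443 to 0.494 CPM in NCM (adjusted p = 0.27). These last 3 genes overlapped between the groups, and no difference was detectable at these counts.

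Itga9, whose product binds tenascin C and VCAM1, had 16.8, 17.9, 15.6 and 17.2 CPM in the LLC_CM libraries, against 11.6, 13.3, 11.6 and 10.3 CPM in the NCM libraries. All LLC_CM libraries were higher, by 1.45-fold (log2 fold change 0.53 ± 0.10 SE, adjusted p = 0.00046). Itga4, the other chain of its class, had no count in LLC_CM and 2 in NCM.

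**Figure D4:**
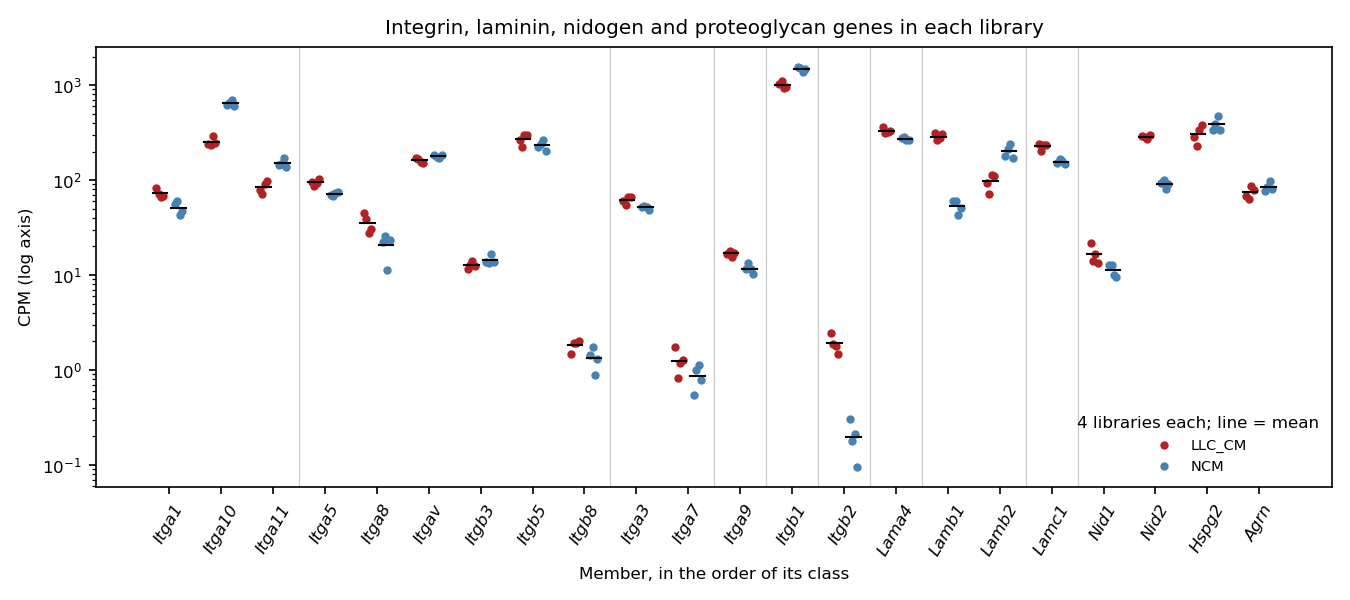
Points give the CPM of each library on a log axis for 22 tested genes with a mean of at least 1 CPM, LLC_CM to the left of NCM for each gene, with short lines for the means and grey lines between classes. Itga10, Itga11, Itgb1 and Lamb2 have their LLC_CM points below all NCM points, and Lamb1, Nid2 and Itgb2 have theirs well above.

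Itgb2, the beta chain of leukocyte integrins, was the only one of the 7 leukocyte integrin genes with enough counts to test. It had 2.48, 1.89, 1.79 and 1.46 CPM in the LLC_CM libraries, against 0.307, 0.177, 0.212 and 0.0946 CPM in the NCM libraries. It was 9.53-fold higher in LLC_CM without overlap (log2 fold change 3.25 ± 0.33 SE, adjusted p = 1.5e-06), on 241 summed counts in LLC_CM and 23 in NCM. Itgb2 passed the filter on low counts through its LLC_CM libraries and could be counted only as higher. The alpha chains that Itgb2 pairs with were near the detection limit: Itgal had 34 counts in LLC_CM and 11 in NCM, Itgax had 2 in LLC_CM and none in NCM, and Itgad had 15 in LLC_CM and 19 in NCM. Itgam had no count in any library, which at 3 counts per library allows as much as 0.111 CPM where depth was lowest, for counting error only. Because 68.7% of its exon bases are shared with Gm49368 on the same strand, reads there may not have been assigned to Itgam, and its count of 0 bounds its level poorly. Itgae, an alpha chain of mucosal lymphocytes, had 45 counts in LLC_CM and 19 in NCM, and its partner Itgb7 had 17 in LLC_CM and 23 in NCM. Of 9 macrophage and leukocyte markers in the table, the summed level was 18.7 to 32.3 CPM in LLC_CM and 11.7 to 17.4 CPM in NCM, most of it from Lyz2 (20.3 CPM in LLC_CM, 11.5 in NCM). Fcer1g, an Fc receptor chain of myeloid cells, was higher without overlap, with 158 counts in LLC_CM and 50 in NCM (log2 fold change 1.54 ± 0.28 SE, adjusted p = 0.00043), and Lyz2 also passed (adjusted p = 0.0089). Cd68 (1.37 CPM in LLC_CM, 1.26 in NCM) and Csf1r (0.862 CPM in LLC_CM, 1.21 in NCM) did not pass. Cd52, Tyrobp and Cd3e had no counts, and Ptprc, the pan-leukocyte marker, had none in LLC_CM and 4 in NCM. The part of these markers in the Itgb2 result was not tested.

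Markers of other cell types were compared in the same way. The summed level of 8 epithelial markers was 1.15 to 2.24 CPM in LLC_CM and 0.424 to 0.921 CPM in NCM, with Krt8, Krt18 and Epcam at 0 and Muc1 the highest (1.46 CPM in LLC_CM, 0.383 in NCM). Muc1 made up most of this sum. Krt19 also had more counts in LLC_CM (5) than in NCM (1). Fewer counts in LLC_CM than in NCM were found for Cdh1 (9 against 13), Krt14 (6 against 11) and Krt5 (0 against 2). The part of these markers in the Lama5 and Itga2 results was not tested. The sum of 7 skeletal muscle markers overlapped, at 4.22 to 6.30 CPM in LLC_CM and 4.73 to 6.16 CPM in NCM, most of it from Des (3.79 CPM in LLC_CM, 4.82 in NCM), with Myog at 0. The sum of 7 endothelial markers was lower in LLC_CM, at 1.52 to 1.71 CPM, than in NCM, at 2.18 to 2.73 CPM. Most of it came from Vwf (1.41 CPM in LLC_CM, 2.34 in NCM), with Kdr, Cdh5 and Cldn5 at 0. Pecam1 had 24 counts in LLC_CM and 21 in NCM, Emcn 4 and 0, and Tek 2 in each group. The sum of 4 platelet markers was 16.8 to 19.8 CPM in LLC_CM and 25.7 to 32.3 CPM in NCM, most of it from Gp1bb (15.1 CPM in LLC_CM, 25.0 in NCM), with Gp9 at 0. Itga2b averaged 3.31 CPM in LLC_CM and 2.78 CPM in NCM and did not pass the test (adjusted p = 0.27).

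The order of levels per length put the receptor and matrix chains together on a single scale. In LLC_CM the order began with Itgb1 (247 CPM per kilobase), Itgb5 (81.1), Nid2 (58.5), Itga10 (48.6), Lamb1 (29.0), Lamc1 (27.6) and Lama4 (27.4). Nid2 and Itga10 overlapped between libraries, as did the last 3 laminin chains with each other. In NCM the order began with Itgb1 (365), Itga10 (124), Itgb5 (69.4), Lamb2 (32.9), Itga11 (29.3), Hspg2 (27.1) and Lama4 (22.5). There Lamb2, Itga11 and Hspg2 overlapped as neighbours, and Lamb1 stood at 5.39. These orders depend on the gene length used: with the longest annotated transcript, Lama4 was at 54.8 CPM per kilobase in LLC_CM and 44.9 in NCM, and Lamb1 at 49.7 in LLC_CM. Lama4 then came above Itga10 (50.0) in LLC_CM, but their libraries overlapped (51.4 to 60.6 for Lama4, 46.2 to 57.4 for Itga10). In NCM, Lama4 came above Lamb2 (35.5), Itga11 (30.3) and Hspg2 (27.3).

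**Figure D5:**
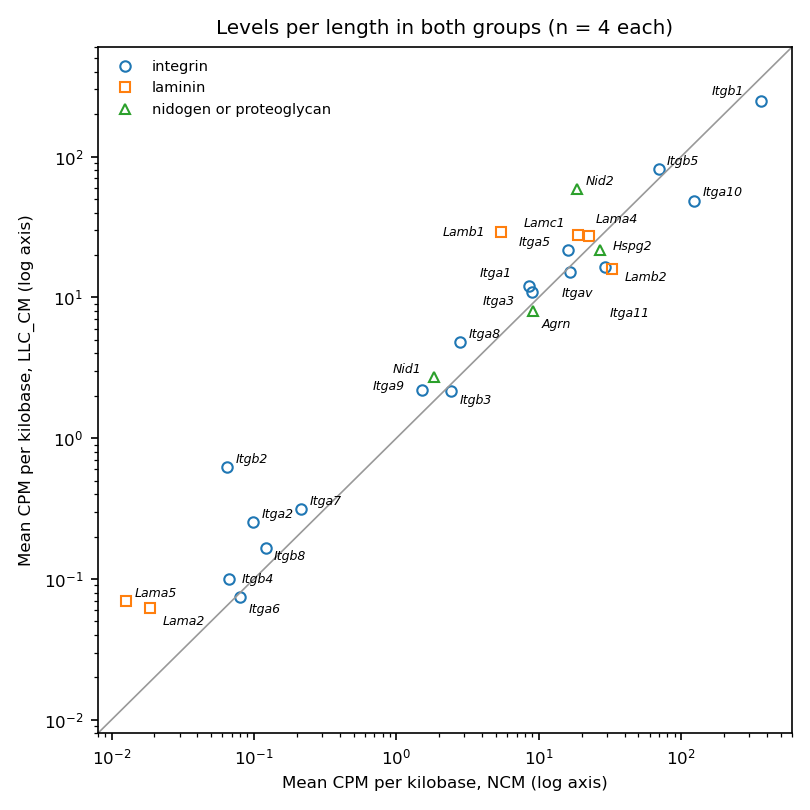
Each of 27 tested genes is placed by its mean CPM per kilobase in NCM (horizontal, log axis) and in LLC_CM (vertical, log axis), with the grey line marking equal levels. Lamb1 (29.0 in LLC_CM, 5.39 in NCM) and Nid2 lie far above the line, and Itga10 (48.6 in LLC_CM, 124 in NCM) lies below it.

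Genes that work with these receptors and chains moved in both directions. Of 16 ligands of RGD-binding and other integrins, 15 were tested, 10 were higher in LLC_CM and 2 lower, with a median log2 fold change of 0.57, beside 18.8% higher and 18.1% lower among all genes tested. Vtn (vitronectin) averaged 14.9 CPM in LLC_CM and 0.234 in NCM (log2 fold change 5.99 ± 0.34 SE, adjusted p = 1.3e-08). Vtn passed the filter on low counts through its LLC_CM libraries, with 27 summed counts in NCM, and could be counted only as higher. Vcam1, which Itga9 and Itga4 receptors bind, had a log2 fold change of 2.32 ± 0.13 SE (adjusted p = 3.7e-08), and Fbn1 (fibrillin) one of 1.76 ± 0.12 SE (adjusted p = 1.0e-07). Of the 12 ligand genes that passed, 10 were thus higher. Of 21 other basement membrane genes, 13 were tested, 8 were higher and 4 lower, with a median of 0.36 and the same shares of all genes beside them. The smallest p-values belonged to collagen genes of the same membranes: the log2 fold change was 1.97 ± 0.09 SE for Col4a1, 1.84 ± 0.09 SE for Col4a2 and 1.78 ± 0.09 SE for Col18a1, all with adjusted p-values of 4.6e-10 or less.

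On the inner side of the membrane the picture was divided. Of 23 tested integrin activators and adhesion plaque genes, 6 were higher in LLC_CM and 7 lower, with a median of 0.01. Together 56.5% of them passed, as did 58.3% of the other receptors and 77.8% of the integrin-associated proteins, where 36.9% of all genes did. Lims2, an adaptor of the integrin-linked kinase complex, averaged 0.279 CPM in LLC_CM and 6.40 in NCM (log2 fold change -4.48 ± 0.23 SE, adjusted p = 1.0e-09). Lims2 passed the filter on low counts through its NCM libraries, with 36 summed counts in LLC_CM, and could be counted only as lower. Vcl, the plaque protein vinculin, was lower (log2 fold change -0.85 ± 0.06 SE, adjusted p = 2.8e-08), and Tln2, a talin that activates integrins, was higher (log2 fold change 1.21 ± 0.10 SE, adjusted p = 2.1e-07). Of 12 tested other laminin and collagen receptors, 3 were higher and 4 lower, and the syndecan co-receptors differed in direction, with log2 fold changes of 0.67 ± 0.06 SE for Sdc1, 0.35 ± 0.06 SE for Sdc2, -0.61 ± 0.06 SE for Sdc3 and -0.48 ± 0.06 SE for Sdc4. Sdc2 was added after its values were seen. Of 9 tested tetraspanins and other integrin-associated proteins, 5 were higher and 2 lower, led by Cd63 (0.63 ± 0.07 SE), Slc3a2 (0.47 ± 0.05 SE) and Cd81 (0.40 ± 0.06 SE).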

How the data were processed

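RNA of 8 MC3T3 samples (4 LLC_CM, 4 NCM) was sequenced from poly(A)-selected libraries made from 200 ng of RNA with 12 PCR cycles, per the labels' protocols. The authors deposited raw read counts per gene in a single table. The tools featureCounts, STAR and CASAVA and the build mm10 are named per the submitters' processing notes, with no versions given in the sources used here. The kit does not mark strand. Groups came from the sample titles, and every value column was matched to a sample by name.

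Genes were kept with filterByExpr (14991 of 43346) and tested with edgeR 4.0.16 (limma 3.58.1, R 4.3.3): TMM factors, robust quasi-likelihood fit, no covariate, two-sided, with p-values adjusted by Benjamini-Hochberg over every tested gene and a threshold of 0.05. Each SE is the size of the log2 fold change over the square root of F. CPM uses TMM-scaled totals, and 3 counts correspond to 0.0840 to 0.111 CPM per library. Levels per kilobase use the deposited gene length. GENCODE M21 gave exon overlaps, with 42462 identifiers matched, and 25 of the 40 genes had a RefSeq promoter window (29 windows). No library repeated another of its group within sampling noise.

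The genes, classes and lists were chosen with earlier results of these data known. Every gene of the set enters the counts, 1 of them is not reported here by name, and up to 3 genes per other list are named by smallest adjusted p. The fit was tested on simulated data. Alternatives were other scalings and filters, DESeq2 1.42.0, limma-voom, a block for the replicate number or a term for odd and even numbers, an adjusted p of 0.01, a 2-fold test, leaving out each library, and another gene length.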

Additional observations from a re-analysis of the deposited data

Results flagged for a closer look

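Of 56 groups of 4 libraries examined over the 28 tested genes, 4 held a library far from the other 3 of its group, where chance gives about 1 in 20. Itga2 had 1.38 CPM in LLC_CM replicate 1, against 0.952 to 0.999 CPM in the other LLC_CM libraries. Itgb3 had 16.5 CPM in NCM replicate 3, against 13.5 to 13.7 CPM in the other NCM libraries. Itgb8 had 1.48 CPM in LLC_CM replicate 1, against 1.92 to 2.00 CPM in the other LLC_CM libraries. Lamc1 had 204 CPM in LLC_CM replicate 2, against 234 to 239 CPM in the other LLC_CM libraries, and this library was the lowest of its group for 14 of the 28 genes.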

How the results depend on the processing

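Over all alternatives but the 2-fold test, 483 of 499 log2 fold changes kept their direction and their side of the threshold, and 22 of 28 genes did so in every such alternative that tested them. Tested against a 2-fold change, 413 genes were higher in LLC_CM and 372 lower, and of the genes described here 3 (Itgb2, Lamb1 and Nid2) were higher and 1 (Itga10) lower. With the longest annotated transcript as the length, Lamb1 was 74.3% of the laminin beta level in LLC_CM and 20.9% in NCM, and Itga10 was 67.7% of the collagen-binding alpha level in LLC_CM and 78.4% in NCM. Leaving out each library in turn left 2399 to 2715 genes higher and 2356 to 2788 lower, and 14 to 16 of the described genes higher and 4 to 5 lower. The Itga6 log2 fold change ranged from -0.77 to 0.37 when single libraries were left out. It turned positive when LLC_CM replicate 1 (0.18), replicate 4 of LLC_CM (0.11) or NCM replicate 4 (0.37) was absent, and it was past the threshold in none of these. The cause of these shifts was not tested. With at least 1 CPM in 4 libraries, 12 genes were higher, since Itga2, Lama2 and Lama5 were then not tested. No scaling moved the median of all genes by more than 0.013.

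The correlations of same-numbered deviations were 0.068, -0.044, 0.20 and -0.027. The value of 0.20, for replicate 3, was the highest of any pair, but not every sample correlated best with its own number. Such weak correlations cannot decide whether the replicate numbers pair the samples. With the replicate number as a block, 2810 genes were higher and 2663 lower, and 15 described genes were higher and 6 lower, with Hspg2 (adjusted p = 0.044) and Agrn (0.041) added.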
